A study of Mus musculus with 8 samples.

Results

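The response of KLF2- CD4 T cells to stimulation through the T cell receptor was examined gene by gene in 4 of the 8 RNA libraries of the study. The members were chosen by their labels alone: 2 libraries of stimulated KLF2- cells were set against 2 libraries of unstimulated KLF2- cells, and 19146 of the 25124 genes in the deposited table held enough reads to be tested. The cells were splenic CD4 T cells of dual reporter mice, in which green fluorescence reports KLF2 and red fluorescence reports FOXP3. They had been sorted as FOXP3-negative, CD44hi and KLF2-negative, a gate set to leave out regulatory T cells marked by FOXP3. The stimulated cells were kept for 48 h with anti-CD3 at 2.5 micrograms/mL and anti-CD28 at 1.25 micrograms/mL, and the unstimulated cells were kept for the same time without these antibodies. The labels number the KLF2- libraries of each condition 3 and 4. They give no age, strain or sex, and they do not say whether the replicates came from separate animals or cultures, so that p-values measure only the spread between these libraries. The remaining 4 libraries, replicates 1 and 2 of KLF2+ cells with and without the same antibodies, entered the fits to share an estimate of the spread and served for one comparison at the end.

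Antibodies to CD3 and CD28 stand in for antigen and costimulation. The receptor signal first induces transcription factors of the NR4A and EGR families, then cytokines and the high-affinity interleukin-2 receptor chain, and later the genes of DNA replication and mitosis as the cells enter division. KLF2 is a transcription factor of quiescent and recirculating T cells, and CD44hi CD4 T cells are antigen-experienced. The question put to the data was which of these steps could be seen in KLF2- cells after 48 h, and whether both stimulated libraries showed them.

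The 4 KLF2- libraries were the least rich in exon reads of the series. Reads in exons made up 18.1% (95% Wilson interval 18.09 to 18.11) and 19.55% (19.54 to 19.56) of all mapped tags in unstimulated replicates 3 and 4, 12.7% (12.69 to 12.71) in stimulated replicate 3 and 7.958% (7.949 to 7.967) in stimulated replicate 4, against 23.57% to 80.31% in the KLF2+ libraries. That left 7338372 and 8616876 exon reads in the unstimulated libraries, 4525898 in stimulated replicate 3 and 2987038 in stimulated replicate 4. Reads spread evenly over the genome were estimated from 1464 olfactory and vomeronasal receptor genes, which T cells are not known to use. At that density such reads would make up 7.8% and 7.086% of the exon reads of the unstimulated libraries, 11.4% in stimulated replicate 3 and 20.09% in stimulated replicate 4. Results are therefore also given after this background was subtracted from every gene. These values also used scaling factors from genes of at least 50 counts per 1000000 reads, so the subtraction and the scaling changed together. Intervals here cover counting error only.

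The replicate numbers also went with sex-linked transcripts. The 7 Y-linked genes read here summed to 460.0 and 404.5 normalized counts per 1000000 reads (CPM) in the unstimulated and stimulated replicate 4 and to 0.116 and 0 CPM in the unstimulated and stimulated replicate 3. Xist, the RNA that silences one X chromosome in female cells, stood the other way, at 102.3 and 73.86 CPM in replicate 3 and at 2.436 and 7.842 CPM in replicate 4. The same split was seen among the KLF2+ libraries. A difference between stimulated replicates 3 and 4 and a difference between cells with and without Y-linked transcripts cannot be told apart. The Y-linked genes Ddx3y, Eif2s3y, Uty and Kdm5d are left out of the descriptions that follow.

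The transcripts of the markers of the sort were read after the 48 h of culture. Without stimulation Klf2 was at 41.0 and 65.0 CPM in KLF2- replicates 3 and 4, and with stimulation it was at 46.5 and 75.8 CPM; all pairs of values below keep this order of replicates. All 4 values lay below those of unstimulated KLF2+ cells, 303.0 and 379.4 CPM, and of stimulated KLF2+ cells, 93.5 and 139.1 CPM. Foxp3, the regulatory T cell factor, was at 12.7 and 12.0 CPM without and 8.57 and 5.23 CPM with stimulation. Cd4 was at 676.9 and 673.7 CPM without and at 479.7 and 474.9 CPM with stimulation. Cd44, the surface marker of the gate, was at 168.0 and 189.4 CPM without and 127.6 and 164.2 CPM with stimulation. Reads of Foxp3 were thus counted in every library although the gate was FOXP3-negative. After background subtraction its log2 change in stimulated replicate 4 alone was -10.23, from a level at or near 0. Its transcripts are therefore not shown in that library. None of the 4 genes passed the test of the response.

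Over both stimulated libraries together, no gene passed an adjusted p of 0.05 in the quasi-likelihood F test of edgeR, with p-values adjusted by the method of Benjamini and Hochberg, which makes the share called 0.0%. The smallest adjusted p was 0.262. At an unadjusted p under 0.05 the count was 2802 genes. The count depended on the method: DESeq2 called 74 genes, of which 47 were higher and 27 lower, and limma on log2 of the deposited TPM values called 3 with a pseudocount of 1 and 5 with a pseudocount of 0.1. With the replicate number, which goes with the Y-linked transcripts, as a term of the edgeR fit, 770 genes were called, 311 higher and 459 lower, on 2 residual degrees of freedom. The median log2 fold change over all genes was 0.06, and it was 0.45 when the scaling factors were taken from genes of at least 50 CPM, so that changes of lists are given relative to it or beside it. The 2 unstimulated libraries were alike, with 42 of the 10884 genes of at least 10 CPM (0.386%) more than 2-fold apart. The 2 stimulated libraries differed more than 2-fold in 921 of these genes (8.46%). For this reason the stimulated libraries are given separately. Each was also tested alone against both unstimulated libraries, with the spread taken from the other groups, so that the lone library was assumed to vary as they did. Below, a result in replicate 3 alone or in replicate 4 alone is that of this test. It does not say that the other stimulated library stayed unchanged.

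**Figure D1:**
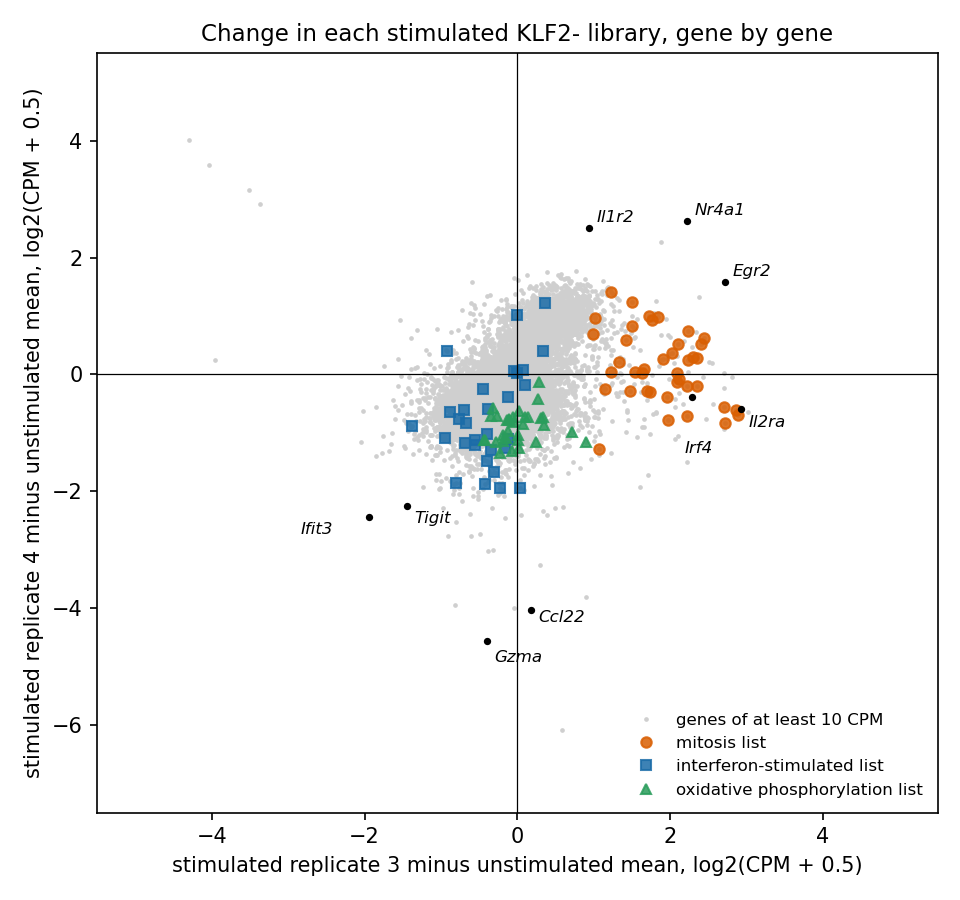
Change of each gene in stimulated replicate 3 (horizontal) and stimulated replicate 4 (vertical) from the mean of the 2 unstimulated KLF2- libraries, in log2(CPM + 0.5). Grey points are the 10884 genes of at least 10 CPM, coloured points are members of 3 gene lists and black points are named genes; mitosis genes lie far to the right near a vertical change of 0, Nr4a1, Egr2 and Il1r2 lie above 0 on both axes, and Ccl22 and Gzma lie far down near a horizontal change of 0.

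Alone, stimulated replicate 3 gave 107 called genes (0.548% of the genes tested), 102 of them higher (0.522%) and 5 lower (0.0256%). Stimulated replicate 4 gave 56 called genes (0.278%), 2 higher (0.00994%) and 54 lower (0.268%). Only Nr4a1 was called in both. After background subtraction 393 genes (2.5%) were called in replicate 3 and 409 (2.58%) in replicate 4. The counts were 273 higher and 120 lower for replicate 3 (1.73% and 0.762%) and 134 higher and 275 lower for replicate 4 (0.846% and 1.74%), and 36 genes were called in both, 28 of them in the same direction. These 28 held Nr4a1, Egr1, Egr2, Spag5, Mcm10 and Ect2, which were higher, and Ifit3 and Stat4, which were lower. Both comparisons share the unstimulated libraries. Across genes, the changes of the 2 libraries had a Pearson correlation of 0.499 over 10884 genes before and 0.375 over 10519 genes after background subtraction; these values share the unstimulated mean and are given as a description.

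Nr4a1, an orphan nuclear receptor and a common reporter of T cell receptor signalling, was the one gene called higher in each stimulated library alone. It was at 7.90 and 7.31 CPM in the unstimulated libraries, at 37.3 CPM in stimulated replicate 3 and at 49.7 CPM in stimulated replicate 4. The groups did not overlap, as held for 31.2% of all tested genes in this direction. The log2 fold change was 2.51 ± 0.33 (SE) over both libraries with an edgeR adjusted p of 0.262. It was 2.29 ± 0.36 with an adjusted p of 0.0364 in replicate 3 alone and 2.66 ± 0.36 with an adjusted p of 0.0348 in replicate 4 alone. Over the 14 alternatives run, its adjusted p ran from 8.52e-15 to 0.87, and 9 of them called it.

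Egr2, a zinc finger factor induced by the receptor through calcium and MAP kinase signals, was at 6.62 and 5.58 CPM without stimulation, at 42.9 CPM in stimulated replicate 3 and at 19.2 CPM in stimulated replicate 4. Both stimulated values lay above both unstimulated ones, and that of replicate 3 was the higher. Its log2 fold change was 2.81 ± 0.24 in replicate 3 alone, with an edgeR adjusted p of 0.00508, and 1.61 ± 0.26 in replicate 4 alone, with an adjusted p of 0.0545. After background subtraction it was called in both, with adjusted p of 0.00288 and 0.0287. Egr1, of the same family, was at 26.5 and 25.7 CPM without stimulation and at 105.8 and 41.0 CPM in stimulated replicates 3 and 4. It rose in replicate 3 alone, by 2.02 ± 0.19 on the log2 scale with an edgeR adjusted p of 0.00557, and after background subtraction in both, with adjusted p of 0.00196 and 0.0283.

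The promoters of Nr4a1 and Egr2 are shown because these genes had the largest fold changes among genes of at least 10 CPM whose groups did not overlap. Each sequence holds the 250 bases before the gene's start in RefSeq's mouse assembly GRCm38.p6, on the gene's strand, and the authors' files place both starts at the same base. Capitals mark TGACG on either strand, the core of the cAMP response element that CREB and ATF factors bind, and in Egr2 also the CArG box, which serum response factor binds. The Nr4a1 sequence lies at chr15:101266596-101266845 on the plus strand and holds 4 copies of TGACG. The Egr2 sequence lies at chr10:67537619-67537868 on the plus strand and holds 2 copies of TGACG and 1 CArG box.
Nr4a1: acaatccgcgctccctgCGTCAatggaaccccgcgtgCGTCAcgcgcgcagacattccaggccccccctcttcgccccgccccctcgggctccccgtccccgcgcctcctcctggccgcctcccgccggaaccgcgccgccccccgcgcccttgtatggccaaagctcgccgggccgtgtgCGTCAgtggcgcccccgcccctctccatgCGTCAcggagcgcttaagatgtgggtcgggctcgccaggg
Egr2: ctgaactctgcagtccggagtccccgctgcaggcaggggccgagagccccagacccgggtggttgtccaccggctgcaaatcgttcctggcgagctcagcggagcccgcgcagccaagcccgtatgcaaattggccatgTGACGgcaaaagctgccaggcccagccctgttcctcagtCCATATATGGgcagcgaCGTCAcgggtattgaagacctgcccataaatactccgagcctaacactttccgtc
Over the list of early receptor-induced genes, 29 of 39 symbols matched a RefSeq promoter. TGACG was found in 38.46% of their 39 promoters and in 17.77% of all 32851 promoters of that length. The CArG box was found in 12.82% and 1.467%. Each start of a gene counted as a promoter of its own, and Egr2 alone gave 5, so these are not shares of genes. How many genes hold the box was not counted. The search was a match of letters and shows no binding.

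The list of early receptor-induced genes as a whole did not follow Nr4a1 and Egr2. Of its 38 tested members, 8 had both stimulated libraries above both unstimulated ones and 11 had both below, against 31.2% and 30.2% of all genes. The median log2 fold change was -0.10, against 0.06 over all genes tested; relative to all genes it was -0.17 as counted and 0.17 after background subtraction. In replicate 3 alone 7 members rose, against 0.522% of all genes: Nr4a1, Egr1, Egr2, Egr3, Irf4, the interleukin-2 receptor alpha chain Il2ra and the transferrin receptor Tfrc. In replicate 4 alone Nr4a1 rose, and Myc and Rgs1 fell (0.00994% and 0.268% of all genes).

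As counted, other genes stood higher in both stimulated libraries without passing the test in both. Penk, which encodes the opioid precursor proenkephalin, was at 8.83 and 14.0 CPM without and 42.5 and 55.3 CPM with stimulation. Its log2 fold change of 2.09 ± 0.43 had an edgeR adjusted p of 0.268. The change was 1.886 in replicate 3 alone and 2.225 in replicate 4 alone, and 2.26 and 3.04 after background subtraction. Il1r2, the decoy receptor of interleukin 1, was at 9.99 and 9.03 CPM without stimulation, at 18.6 CPM in stimulated replicate 3 and at 56.2 CPM in stimulated replicate 4. It rose in replicate 4 alone, by 2.52 ± 0.31 on the log2 scale with an edgeR adjusted p of 0.0274, and its value in replicate 3 alone was 0.97 ± 0.33 with an adjusted p of 0.343. Spag5, a spindle protein, was at 8.13 and 6.90 CPM without stimulation and at 41.0 and 19.6 CPM in stimulated replicates 3 and 4. It rose in replicate 3 alone, by 2.45 ± 0.25 with an edgeR adjusted p of 0.00639. Epas1, Kif4, Ajuba, Gtse1 and Esco2 completed the 10 genes of largest fold change whose groups did not overlap. All 5 stood higher in replicate 3 than in replicate 4. Epas1, a hypoxia-inducible factor, was for example at 4.42 and 4.57 CPM without stimulation and at 28.7 and 5.23 CPM with it. After background subtraction the log2 changes in replicate 4 alone were 0.0 for Epas1, -0.0912 for Kif4 and -7.76 for Ajuba. A rise of Epas1, Kif4 and Ajuba in replicate 4 is thus not shown. Gtse1 and Esco2 were at 0.90 and 1.1 in the same comparison.

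**Figure D2:**
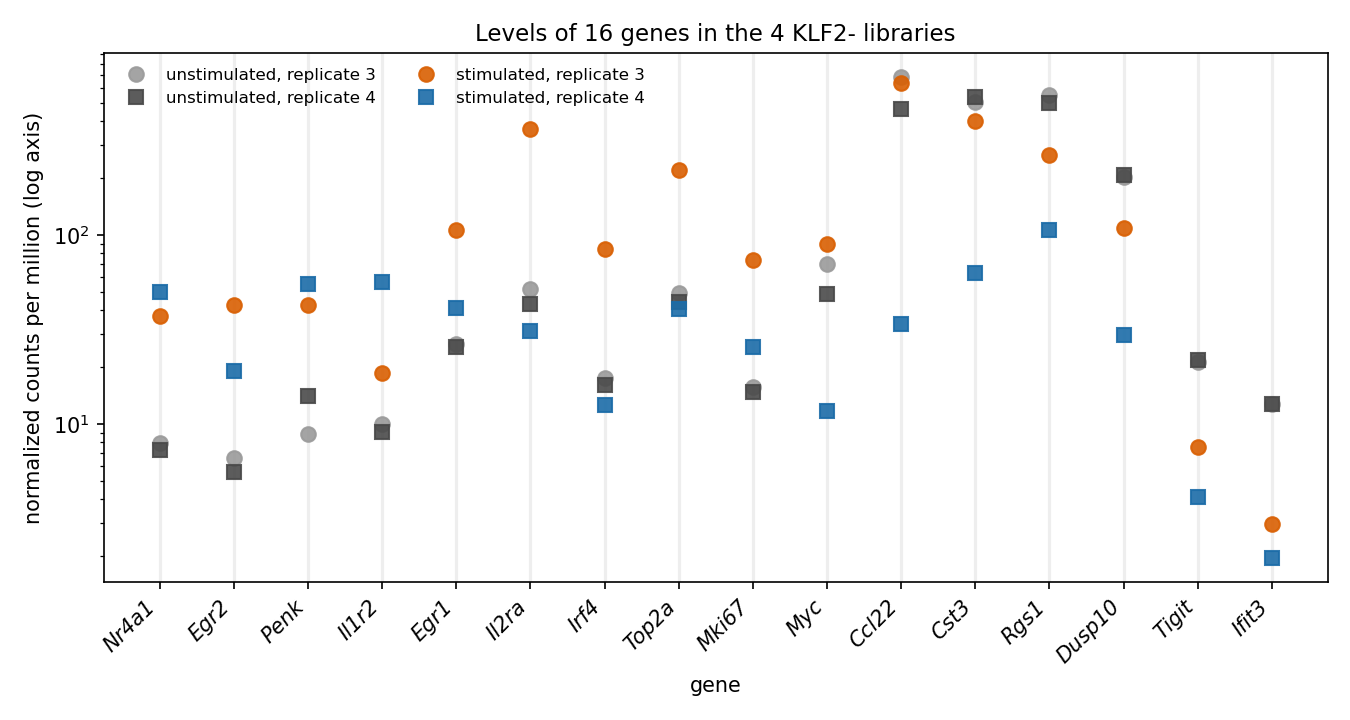
Levels in CPM (log axis) of 16 genes in the 4 KLF2- libraries, 1 point per library; grey points are unstimulated, orange points stimulated replicate 3 and blue points stimulated replicate 4. Nr4a1, Egr2, Penk and Il1r2 have both stimulated points above both grey ones, Il2ra, Irf4 and Top2a only the orange one, while Myc, Ccl22 and Cst3 have only the blue one far below.

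Of the gene lists with at least 10 tested genes, those of cell division had medians farthest apart between the stimulated libraries. The mitosis list, which holds spindle, centromere and cytokinesis genes, had all 40 members above both unstimulated libraries in stimulated replicate 3, where the share over all genes was 41.8%. In 38 of the 40 the excess was more than 2-fold, against 4.53% of all genes. In stimulated replicate 4, 19 members lay above both unstimulated libraries and 14 below both (46.7% and 43.1% of all genes), and 3 were more than 2-fold above (13.6% of all genes). In the edgeR fits of each library alone, the median log2 fold change of the list was 1.95 for replicate 3 and 0.01 for replicate 4. The median change of the list was 1.93 on the log2 scale in replicate 3 and 0.07 in replicate 4, beside 0.01 and 0.07 over all genes. After background subtraction the medians were 2.50 and 0.47, beside 0.07 and 0.16 over all genes. The summed level of the list was 659.8 and 641.3 CPM without stimulation, 2469 CPM in stimulated replicate 3 and 753.5 CPM in stimulated replicate 4.

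Top2a, the topoisomerase that untangles chromosomes in mitosis, was at 49.4 and 44.4 CPM without stimulation, at 219.1 CPM in stimulated replicate 3 and at 40.5 CPM in stimulated replicate 4. It rose by 2.22 ± 0.23 on the log2 scale in replicate 3 alone, with an edgeR adjusted p of 0.00652. In replicate 4 alone the value was -0.25 ± 0.26 with an adjusted p of 0.564. Mki67, which encodes the proliferation antigen Ki-67, was at 15.7 and 14.8 CPM without stimulation and at 73.4 and 25.7 CPM in stimulated replicates 3 and 4, and rose in replicate 3 alone (log2 fold change 2.26 ± 0.26, edgeR adjusted p of 0.00802). Cenpe, a kinesin of the kinetochore, was at 12.0 and 10.96 CPM without stimulation and at 40.2 and 22.2 CPM with it. Cenpf, a kinetochore protein, was at 9.76 and 12.6 CPM without and 32.3 and 26.8 CPM with stimulation. Hmmr, a spindle protein, was at 30.2 and 30.1 CPM without and 100.6 and 61.0 CPM with stimulation. Ect2, which directs cytokinesis, was at 19.3 and 19.9 CPM without and 53.4 and 29.6 CPM with stimulation. In these 4 genes both stimulated libraries lay above both unstimulated ones, with replicate 3 the higher in each.

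The Top2a promoter is shown as that of the mitosis list's best known member. It lies at chr11:99024190-99024439 on the minus strand of GRCm38.p6, in RefSeq's table, and capitals mark CCAAT, the box bound by NF-Y, and TTTGAA, the element of cell cycle genes known as CHR, on either strand. It holds 6 copies of CCAAT and 2 of TTTGAA.
Top2a: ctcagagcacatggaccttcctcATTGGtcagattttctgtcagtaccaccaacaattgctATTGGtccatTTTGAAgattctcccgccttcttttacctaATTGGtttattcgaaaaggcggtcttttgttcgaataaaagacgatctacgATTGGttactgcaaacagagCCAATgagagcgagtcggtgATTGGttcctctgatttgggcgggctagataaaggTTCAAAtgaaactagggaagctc
Of the 40 mitosis genes, 33 matched a RefSeq promoter. CCAAT was found in 74.29% of their 35 promoters and in 33.85% of all 32851 promoters, and TTTGAA in 34.29% and 15.99%. For the DNA replication list, 33 of 41 genes matched 38 promoters, of which 57.89% held CCAAT and 10.53% held TTTGAA. TTTCGCGC or TTTGGCGC, forms of the E2F site, were found in 15.79% of the DNA replication promoters, in 5.714% of the mitosis promoters and in 0.6545% of all promoters. These are again shares of promoters and not of genes, and the matches describe the letters in these windows.

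DNA replication genes showed the same division between the libraries at a smaller size. In stimulated replicate 3, 38 of 41 members lay above both unstimulated libraries and 20 were more than 2-fold above, against 41.8% and 4.53% of all genes. In stimulated replicate 4, 7 lay above both and 26 below both, against 46.7% and 43.1% of all genes. Replicate 3 alone called 14 higher (0.522% of all genes) and none lower, and replicate 4 alone called 1 lower (0.268%) and none higher. The list median was 1.08 in replicate 3 and -0.32 in replicate 4 on the log2 scale, and 1.61 and 0.06 after background subtraction. Rrm2, the ribonucleotide reductase subunit that limits nucleotide supply, was at 43.9 and 23.4 CPM without stimulation, at 265.1 CPM in stimulated replicate 3 and at 20.5 CPM in stimulated replicate 4. It rose in replicate 3 alone, by 2.97 ± 0.32 on the log2 scale with an edgeR adjusted p of 0.00666. Mcm10, a factor of the replication fork, was at 7.79 and 8.93 CPM without and 31.3 and 17.9 CPM with stimulation. Its log2 fold change was 1.90 ± 0.21 in replicate 3 alone (edgeR adjusted p of 0.00724) and 1.05 ± 0.23 in replicate 4 alone (adjusted p of 0.0848). Orc1 of the origin recognition complex stood at 12.3 and 12.3 CPM without and 36.3 and 21.8 CPM with stimulation, and the DNA polymerase gene Pole at 18.4 and 15.6 CPM without and 36.4 and 31.4 CPM with it. Unlike Rrm2, Mcm10, Orc1 and Pole had both stimulated libraries above both unstimulated ones.

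**Figure D3:**
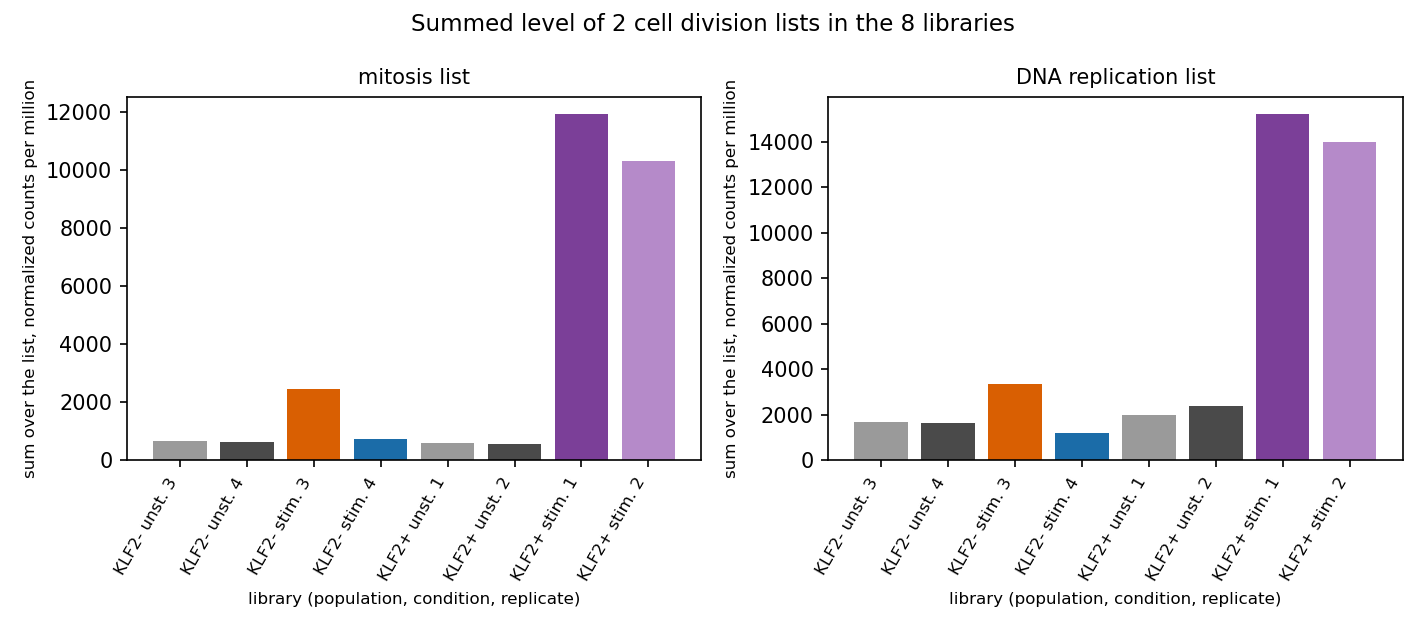
Summed CPM of the mitosis list (left) and the DNA replication list (right) in each of the 8 libraries, 1 bar per library. Stimulated KLF2- replicate 3 stands above the other KLF2- libraries at 2469 and 3359 CPM, and the stimulated KLF2+ libraries stand highest, at 11930 and 10320 CPM in the mitosis list.

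Genes outside the mitosis and DNA replication lists were also called in replicate 3 alone, among them Il2ra and Irf4. Il2ra was at 51.5 and 43.0 CPM without stimulation, at 360.7 CPM in stimulated replicate 3 and at 30.9 CPM in stimulated replicate 4. It rose by 2.93 ± 0.25 on the log2 scale in replicate 3 alone, with an edgeR adjusted p of 0.00508, and was at -0.66 ± 0.28 in replicate 4 alone, with an adjusted p of 0.22. Irf4, a factor whose level follows receptor strength, was at 17.4 and 16.04 CPM without stimulation and at 83.8 and 12.6 CPM in stimulated replicates 3 and 4, and rose in replicate 3 alone (log2 fold change 2.32 ± 0.21, edgeR adjusted p of 0.00527). Egr3 was at 1.39 and 1.62 CPM without stimulation and at 16.2 and 0.871 CPM with it. The chemokine gene Ccl1 was at 0.232 and 0 CPM without stimulation and at 10.7 and 1.74 CPM with it, so that its unstimulated level rests on at most a few reads. Pbk, a mitotic kinase, was at 3.83 and 3.86 CPM without and 31.6 and 2.18 CPM with stimulation. Egr3, Ccl1, Rrm2, Il2ra and Pbk were the 5 genes farthest above the unstimulated mean in replicate 3.

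Among the T helper lists, 5 of 16 Th2 genes had both stimulated libraries above and 4 had both below both unstimulated ones, shares near those of all genes (31.2% and 30.2%). Replicate 3 alone called 3 of them higher (0.522% of all genes), the chemokine receptors Ccr4 and Ccr8 and the cytokine Il9, and replicate 4 alone called 1 lower. Of 16 Th17 genes, 1 had both stimulated libraries above and 9 had both below, and none was called in either library alone. Ccr4 was at 18.8 and 14.4 CPM without and 82.1 and 23.1 CPM with stimulation, and Ccr8 at 21.6 and 19.3 CPM without and 63.0 and 27.4 CPM with it. Replicate 3 was the higher of the stimulated libraries for both receptors. The folate enzyme gene Shmt1, of the amino acid and one-carbon list, stood at 8.83 and 9.44 CPM without and at 37.3 and 14.8 CPM with stimulation and was also called in replicate 3 alone (log2 fold change 2.02 ± 0.20, edgeR adjusted p of 0.00639). That list had 3 of 30 members called higher in replicate 3 and none in replicate 4.

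Of the 29 secreted cytokine genes tested, 4 had both stimulated libraries above and 9 below both unstimulated ones, against 31.2% and 30.2% of all genes. The median log2 change of the list was 0.21 in replicate 3 and -0.36 in replicate 4, beside 0.01 and 0.07 over all genes. Lif, a cytokine of the interleukin-6 family, was at 7.44 and 6.70 CPM without stimulation, at 44.2 CPM in stimulated replicate 3 and at 4.79 CPM in stimulated replicate 4. It rose by 2.64 ± 0.33 on the log2 scale in replicate 3 alone, with an edgeR adjusted p of 0.01. Stimulated replicate 4 lay below both unstimulated libraries. Il2, the T cell growth factor, was at 6.97 and 3.04 CPM without stimulation and at 19.5 and 5.45 CPM with it (log2 fold change 1.33 ± 0.63, edgeR adjusted p of 0.358). Il10, an anti-inflammatory cytokine, was at 2.09 and 2.03 CPM without and 7.09 and 3.05 CPM with stimulation, and was called higher in replicate 3 alone after background subtraction (edgeR adjusted p of 0.0247) but not before (0.0572). Ifng, the Th1 cytokine, was at 21.4 and 35.7 CPM without and 18.5 and 8.71 CPM with stimulation, with both stimulated values below both unstimulated ones. Il4, the Th2 cytokine, was at 6.51 and 6.50 CPM without and 11.2 and 5.66 CPM with stimulation, and Il21 stayed between 1.31 and 3.45 CPM in the 4 libraries. The granzyme gene Gzmb was at 11.6 and 9.34 CPM without and 14.8 and 10.5 CPM with stimulation. Before background subtraction Il2, Il10, Ifng, Il4, Il21 and Gzmb did not pass the test in either stimulated library alone.

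In stimulated replicate 4, 937 of all tested genes stood more than 2-fold below both unstimulated libraries and 2599 more than 2-fold above. Most genes called in that library alone as counted were lower, and these are described here. Ccl17 and Ccl22, chemokines that draw CCR4-bearing cells, were among the 5 genes farthest below the unstimulated mean there, as were Gzma, Smtn and Pkib. Pkib was at 125.0 and 112.3 CPM without stimulation and at 115.4 and 6.97 CPM in stimulated replicates 3 and 4. Ccl17 was at 59.1 and 39.0 CPM without stimulation, at 72.2 CPM in stimulated replicate 3 and at 0.218 CPM, a single read, in stimulated replicate 4. Ccl22 was at 682.2 and 462.2 CPM without stimulation, at 633.9 CPM in stimulated replicate 3 and at 33.8 CPM in stimulated replicate 4. Ccl22 fell by 4.13 ± 0.45 on the log2 scale in replicate 4 alone, with an edgeR adjusted p of 0.0211, and was at 0.14 ± 0.35 in replicate 3 alone. Gzma, a granzyme of cytotoxic cells, was at 29.2 and 16.04 CPM without stimulation and at 16.3 and 0.436 CPM with it, the last value again resting on a few reads. Cst3, which encodes cystatin C and is abundant in dendritic cells, was at 503.4 and 537.3 CPM without stimulation, at 399.6 CPM in stimulated replicate 3 and at 63.2 CPM in stimulated replicate 4. In replicate 4 alone it fell by 3.09 ± 0.28 on the log2 scale, with an edgeR adjusted p of 0.00946.

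Markers of other cell types were read beside these genes. The dendritic cell list holds Cst3, and most of the list's fall in stimulated replicate 4 was that of this gene. The summed list was at 959.2 and 1057 CPM without stimulation and at 941.0 and 467.7 CPM with it. Of its 15 listed genes, Cst3 in replicate 4 was the only one that passed the test in either library alone. The myeloid list summed to 725.4 and 769.3 CPM without and 506.8 and 470.1 CPM with stimulation. The B cell list summed to 151.5 and 186.7 CPM without and 135.3 and 232.0 CPM with stimulation, and the basophil and mast cell list to between 209.6 and 242.8 CPM in the 4 libraries. The NK and innate-like list, which holds Gzma, was between 193.7 and 290.6 CPM, the erythroid and platelet list between 56.2 and 125.0 CPM and the CD8 pair between 11.9 and 22.2 CPM. Tpsb2, a mast cell tryptase, was the only gene of these lists at 0 CPM in all 4 libraries, where a count of 0 allows up to between 0.305 and 0.653 CPM. The dendritic cell genes named next were chosen after their values were seen. Clec9a, Clec10a and Itgax stood at 1.86 CPM or less in every library, while Xcr1 was between 17.4 and 24.2 CPM, Zbtb46 between 22.4 and 34.0 CPM, Flt3 between 35.9 and 60.1 CPM and Tcf4 between 38.6 and 54.0 CPM. Fscn1, which marks mature dendritic cells, was at 168.3 and 227.6 CPM without stimulation and at 303.3 and 123.5 CPM with it. Siglech and Cd209a were highest in stimulated replicate 4, at 27.45 and 25.5 CPM, against 14.2 and 17.3 CPM at most in the other KLF2- libraries. Bst2 and Batf3 were lowest there, at 25.3 and 12.6 CPM, against 49.6 and 17.1 CPM at least in the others. The T cell identity list summed to 8340 and 9509 CPM without and 6406 and 5854 CPM with stimulation. The part of other cells in the loss of Ccl17, Ccl22 and Cst3 from replicate 4 was not tested. In bulk RNA, fewer cells of a type and less RNA per cell cannot be told apart.

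Myc, the growth regulator that normally follows receptor signalling, was at 69.8 and 48.9 CPM without stimulation, at 89.0 CPM in stimulated replicate 3 and at 11.8 CPM in stimulated replicate 4. In replicate 4 alone it fell by 2.38 ± 0.30 on the log2 scale, with an edgeR adjusted p of 0.0299, and was at 0.58 ± 0.24 in replicate 3 alone, with an adjusted p of 0.437. The lists of growth and metabolism also stood lower in replicate 4 than in replicate 3. All 32 oxidative phosphorylation genes lay below both unstimulated libraries in replicate 4, with a median of -0.86, and 16 of 32 did so in replicate 3, with a median of -0.06, against 43.1% and 41.3% of all genes. Cox4i1, a subunit of the respiratory chain, was at 157.7 and 167.9 CPM without stimulation and at 121.3 and 74.1 CPM in stimulated replicates 3 and 4. All 21 genes of the unfolded protein response, 26 of 30 of ribosome biogenesis and 19 of 22 of glycolysis also lay below both unstimulated libraries in replicate 4 (43.1% of all genes), with medians of -0.80, -0.63 and -0.74. Hexokinase 2, Hk2, which commits glucose to glycolysis, went the other way, at 16.7 and 14.0 CPM without and 23.1 and 36.4 CPM with stimulation. The size of these shifts depended on the processing, and the share of background was highest in this library. After subtraction, which came with other scaling factors and was not separated from them, the replicate 4 medians were -0.25 for oxidative phosphorylation. They were -0.20 for the unfolded protein response, -0.10 for ribosome biogenesis and -0.22 for glycolysis, beside 0.16 over all genes. In replicate 3 the medians after subtraction were 0.20, 0.15, 0.60 and 0.25 in the same order, beside 0.07 over all genes. Of these 4 lists, 1 gene of ribosome biogenesis was called lower in replicate 4 alone and none was called in replicate 3 alone. After subtraction replicate 3 alone called 8 genes of ribosome biogenesis, 3 of glycolysis, 2 of oxidative phosphorylation and 1 of the unfolded protein response higher (1.73% of all genes), and replicate 4 alone called 1 gene of ribosome biogenesis lower.

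**Figure D4:**
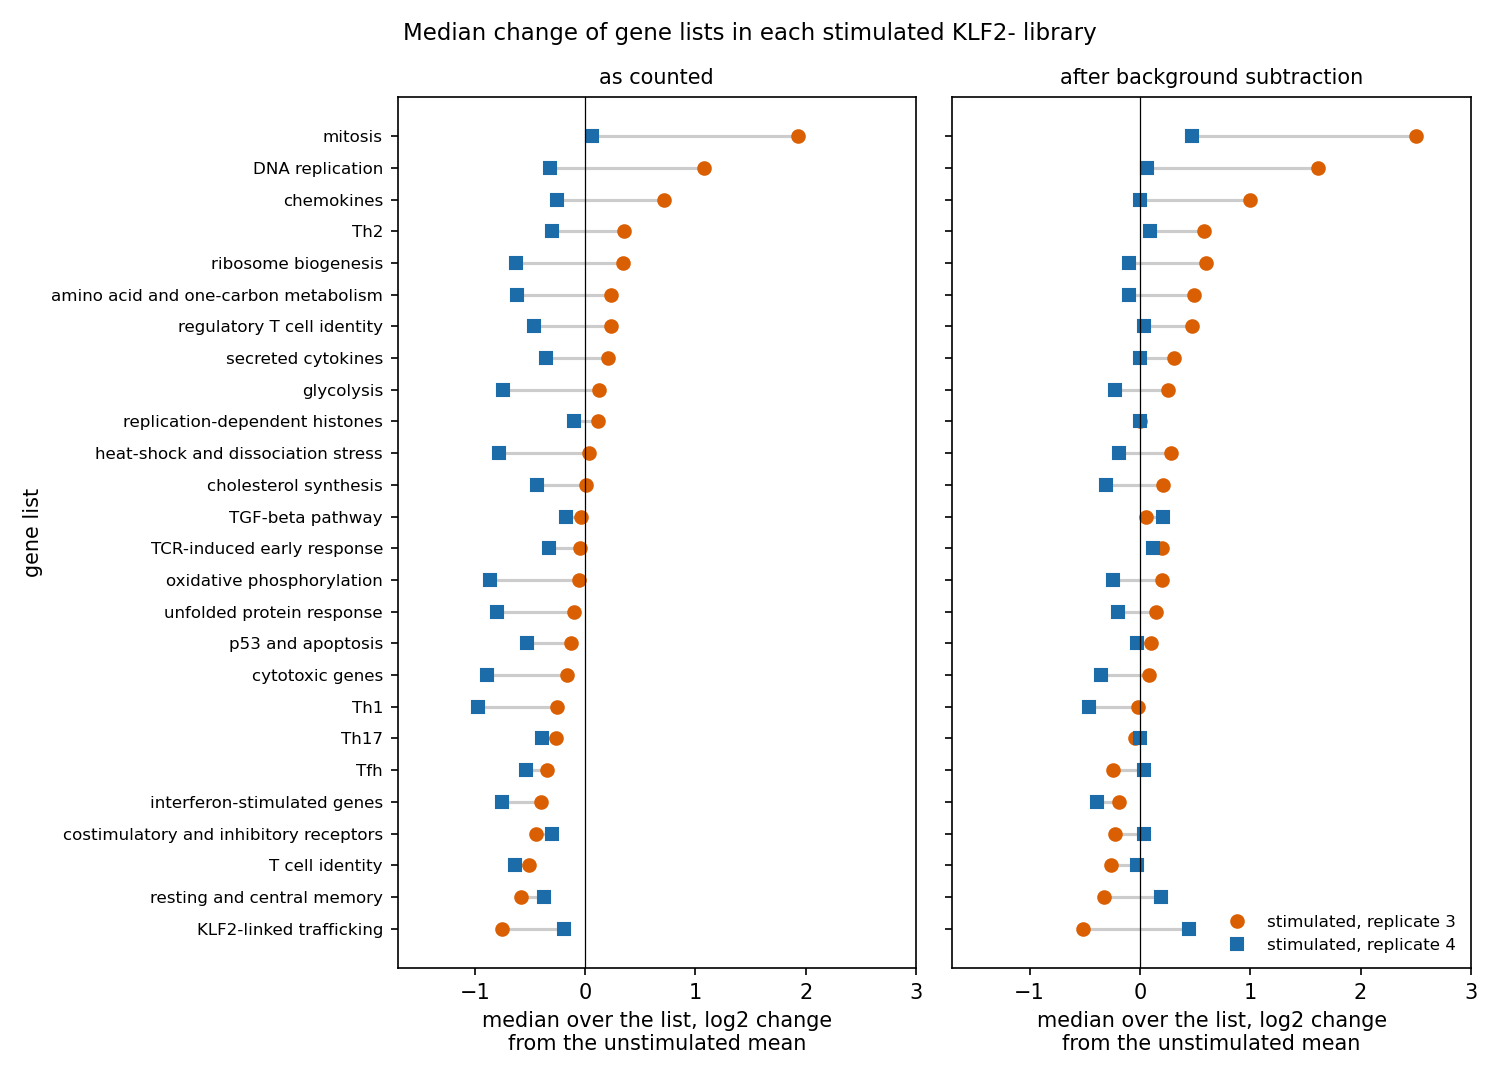
Median log2 change of gene lists of at least 10 tested genes in stimulated replicate 3 (orange circles) and stimulated replicate 4 (blue squares) from the unstimulated mean, as counted (left) and after background subtraction (right). The lists of markers of other cell types are not drawn. Mitosis and DNA replication are the lists farthest apart, at 1.93 against 0.07 and 1.08 against -0.32 as counted. Most other blue squares move toward or past 0 in the right panel, where the scaling factors also come from genes of at least 50 CPM.

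Genes that stood lower in both stimulated libraries were led by Tigit, an inhibitory receptor of T and NK cells. It was at 21.4 and 21.7 CPM without stimulation and at 7.58 and 4.14 CPM in stimulated replicates 3 and 4, with a log2 fold change of -1.86 ± 0.35 and an edgeR adjusted p of 0.268. Rgs1, a brake on chemokine receptor signals, was at 549.0 and 496.7 CPM without stimulation and at 265.7 and 106.3 CPM with it. In replicate 4 alone it fell by 2.34 ± 0.33 on the log2 scale, with an edgeR adjusted p of 0.0361. Dusp10, a phosphatase of stress-activated MAP kinases, was at 203.3 and 206.4 CPM without and 109.1 and 29.6 CPM with stimulation and in replicate 4 alone fell by 2.83 ± 0.24, with an edgeR adjusted p of 0.00732. Smtn, a cytoskeletal gene, was at 133.6 and 115.9 CPM without and 70.4 and 7.62 CPM with stimulation. In all 4 genes replicate 4 was the lower of the stimulated libraries. Art2b, an ADP-ribosyltransferase of T cells, was at 134.8 and 124.0 CPM without and 54.7 and 33.6 CPM with stimulation. H2-Q2, Bambi-ps1 and Mmp25 were lower in replicate 3 than in replicate 4, and Eno3 was lower in replicate 4, with these 4 genes below both unstimulated libraries in both. Reads of H2-Q2 may be shared with other class I genes of the same family, and Bambi-ps1 is a pseudogene, so that their values are uncertain.

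The interferon-stimulated list had 25 of 35 members with both stimulated libraries below both unstimulated ones and 3 above, against 30.2% and 31.2% of all genes. Its median log2 fold change was -0.72 relative to that of all genes tested and -0.48 after background subtraction. Ifit3, an antiviral effector, was at 12.8 and 12.8 CPM without and 2.97 and 1.96 CPM with stimulation, and after background subtraction it was called lower in replicate 3 alone and in replicate 4 alone (edgeR adjusted p of 0.0236 and 0.0342). Ifit2 was at 51.1 and 55.6 CPM without and 20.1 and 28.5 CPM with stimulation. The guanylate-binding protein genes Gbp3 and Gbp7 were at 91.8 and 99.0 CPM and at 256.1 and 240.5 CPM without stimulation. With stimulation, Gbp3 was at 55.9 and 56.2 CPM and Gbp7 at 153.6 and 109.8 CPM. Replicate 4 alone called 5 members lower (0.268% of all genes), and replicate 3 alone called none.

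Genes of resting, recirculating and Th1 cells were below the unstimulated level in both libraries more often than above. Both stimulated libraries lay below both unstimulated ones in 20 of 27 genes of resting and central memory, 9 of 20 of KLF2-linked trafficking, 16 of 24 of T cell identity, 11 of 17 of the Th1 list and 11 of 19 of the follicular helper list, against 30.2% of all genes. The medians relative to all genes were -0.54, -0.45, -0.55, -0.76 and -0.43, and -0.17, -0.12, -0.17, -0.53 and -0.21 after background subtraction. The libraries differed after subtraction: the median of resting and central memory was -0.33 in replicate 3 and 0.19 in replicate 4, and that of KLF2-linked trafficking was -0.52 and 0.45, beside 0.07 and 0.16 over all genes. In replicate 4 after subtraction these 2 lists were thus not below the median of all genes. Cxcr4, a homing receptor, was at 49.5 and 51.0 CPM without and 15.7 and 21.8 CPM with stimulation, with a log2 fold change of -1.43 ± 0.27 and an edgeR adjusted p of 0.268. Ccr7, the lymph node homing receptor, was at 1185 and 1280 CPM without and 733.6 and 619.5 CPM with stimulation. Klf3, a relative of KLF2, was at 179.4 and 169.9 CPM without and 83.4 and 107.2 CPM with stimulation, and the Th1 chemokine receptor gene Cxcr3 at 314.0 and 334.3 CPM without and 139.8 and 186.0 CPM with it. Klf3 and Cxcr3 were lower in replicate 3 than in replicate 4, and Ccr7 was lower in replicate 4. After background subtraction the log2 changes in replicate 3 alone were -1.6 for Cxcr4, -0.49 for Ccr7, -0.84 for Klf3 and -0.97 for Cxcr3. In replicate 4 alone they were -0.74, -0.33, -0.079 and -0.15 in the same order.

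Genes known to hold T cells in quiescence were among those that stood lower in both libraries as counted. Btg2, an antiproliferative factor, was at 423.9 and 388.0 CPM without and 193.9 and 212.0 CPM with stimulation. Pik3ip1, an inhibitor of PI3 kinase, was at 79.5 and 88.9 CPM without and 34.3 and 53.6 CPM with it. After background subtraction the log2 changes of Btg2 and Pik3ip1 were -0.83 and -1.12 in replicate 3 alone. In replicate 4 alone they were -0.30 and -0.070. Stat4, which relays interleukin 12, was at 631.6 and 628.7 CPM without and 302.7 and 242.4 CPM with stimulation, and after background subtraction it was called lower in replicate 3 alone and in replicate 4 alone (edgeR adjusted p of 0.0194 and 0.0352). Themis, Bcl11b and Cd28, genes of T cell identity and receptor signalling, each had both stimulated libraries below both unstimulated ones. Bcl11b was at 430.4 and 486.1 CPM without and 272.0 and 183.2 CPM with stimulation, and after background subtraction it was called lower in replicate 4 alone (edgeR adjusted p of 0.0432) but not in replicate 3 alone (0.0898).

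The KLF2- response was then set against that of KLF2+ cells by the interaction term of the fit. A total of 6855 genes (35.8%) differed at an edgeR adjusted p under 0.05, 2965 higher and 3890 lower in the KLF2- response. The split depended on the scaling: it was 5102 higher and 1017 lower with scaling factors from genes of at least 50 CPM, 1260 (8.24%) and 547 after background subtraction, 3683 and 3110 in DESeq2, and 4808 and 813 or 5493 and 850 in limma on log2(TPM + 1) or log2(TPM + 0.1). The count was 2512 without stimulated KLF2- replicate 4, 74 without unstimulated replicate 3 and 70 without unstimulated replicate 4. In the mitosis list 38 of 40 genes (20.3% of all genes in this direction) had a lower response in KLF2- cells, and in the DNA replication list 36 of 41. After background subtraction it was 6 in each list, with 3.58% of all genes called in this direction. The mitosis list summed to 615.2 and 553.8 CPM in unstimulated and to 11930 and 10320 CPM in stimulated KLF2+ cells.

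The 5 genes with the most negative difference, Gzma, Tnfrsf8, Il21, Ecm1 and Tigit, stood higher in both stimulated than in both unstimulated KLF2+ libraries, from unstimulated levels of 29.6 CPM at most. Il21, a cytokine of helper T cells, went from 2.702 and 3.64 CPM to 147.5 and 172.8 CPM in KLF2+ cells and had a difference of -5.99 ± 0.52 with an edgeR adjusted p of 0.00223, which after background subtraction was 0.0771. Tnfrsf8, which encodes CD30, went from 6.08 and 1.79 CPM to 206.1 and 272.7 CPM in KLF2+ cells and stood between 11.6 and 14.4 CPM in the KLF2- libraries, a difference of -6.05 ± 0.61 with an edgeR adjusted p of 0.00265. Tigit, which stood lower in the stimulated KLF2- libraries, went from 3.60 and 5.57 CPM to 50.8 and 64.6 CPM in KLF2+ cells, and had a difference of -5.49 ± 0.49 with an edgeR adjusted p of 0.0023. Nr4a1 and Egr2 did not pass this test. Nr4a1 went from 17.8 and 18.2 CPM to 94.2 and 182.2 CPM in KLF2+ cells, and its difference was -0.43 ± 0.44 with an edgeR adjusted p of 0.422. Egr2 went from 16.1 and 15.5 CPM to 158.4 and 126.6 CPM, with a difference of -0.82 and an edgeR adjusted p of 0.178. The sign of both differences changed with the scaling, to 0.49 and 0.029 with factors from genes of at least 50 CPM.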

How the data were processed

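RNA from 8 libraries (4 groups of 2) was analysed. Per the labels' protocols, libraries were made with the SMARTer stranded pico kit, while the titles name polyA RNA. Per the submitters' processing notes, the authors used STAR 2.7.9, HOMER 4.11, SAMtools and DESeq2 with builds mm10 and GRCm38; strand treatment and read filters are not given in the sources used here. One table, deposited by the authors, holds estimated counts of exon reads per gene, in multiples of 0.5 read, per the file headers; the other deposited table holds TPM values, whose columns sum to between 503800 and 523400 and not to 1000000.

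From the deposited counts, rounded to whole reads, edgeR 4.0.16 (R 4.3.3; TMM factors, filterByExpr, quasi-likelihood F test, group as the only term) gave log2 fold changes, standard errors and Benjamini-Hochberg adjusted p-values over 19146 genes, called under 0.05. CPM values are TMM-scaled. Changes per library are log2(CPM + 0.5) minus the unstimulated mean. The background is the read density over 1684 kb of receptor exons times each gene's exon length. All values after its subtraction use factors from genes of at least 50 CPM. DESeq2 1.42.0 and limma 3.58.1 on log2(TPM + 1) or log2(TPM + 0.1) were alternatives, as were other scaling, no filter, a replicate block and leaving out each library. The scripts were tested on simulated data.

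Genes named are the 10 highest and 10 lowest fold changes without overlap between groups at 10 CPM or more, the 5 farthest in each stimulated library each way, up to 4 per gene list by unadjusted p, a set of activation markers and the 5 extremes of the difference from KLF2+ cells; a subset is printed, and some genes are not reported here. The members and the 33 gene lists were chosen with earlier results of these data known. Mapped tags per library ran from 33897727 to 45599190 and exon reads from 2987038 to 36620465. One read was worth 0.102 to 0.218 CPM in the KLF2- libraries.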

Additional observations from a re-analysis of the deposited data

Results flagged for a closer look

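The 13 genes named for the comparison with KLF2+ cells below had a response in KLF2- cells that differed from that in KLF2+ cells by the interaction test of the fit over all genes (edgeR, adjusted p under 0.05). Values are the KLF2- minus the KLF2+ response on the log2 scale. The response was lower in KLF2- cells for Gzma (-9.18), Tnfrsf8 (-6.05), Il21 (-5.99), Ecm1 (-5.81), Tigit (-5.49), Top2a (-2.73) and Mcm10 (-2.69). It was higher for Klf2 itself (1.75), which stood lower with stimulation in KLF2+ cells, at 93.5 and 139.1 CPM against 303.0 and 379.4 CPM, and at 46.5 and 75.8 CPM against 41.0 and 65.0 CPM in KLF2- cells. It was also higher for Shisal1 (5.77), Slc7a14 (5.36), Scn4b (5.29), Prss34 (5.27) and Clec4n (7.89). The unstimulated KLF2+ replicates 1 and 2 differed widely for Shisal1 (23.4 and 2.58 CPM), Slc7a14 (16.9 and 1.39 CPM) and Scn4b (11.5 and 1.46 CPM). With stimulation the KLF2+ values were 0.453 and 0.305, 0.680 and 0.262, and 0.831 and 0.0873 CPM in the same order. Clec4n was at 0 CPM in both unstimulated KLF2- libraries, so that its value depends on the prior count, and it went from 63.2 and 106.4 CPM to 9.89 and 14.7 CPM with stimulation in KLF2+ cells. Prss34 went from 36.4 and 31.5 CPM to 0.906 and 0.698 CPM in KLF2+ cells and stood between 9.65 and 23.1 CPM in the KLF2- libraries. Clec4n belongs to the list of myeloid markers, of which 14 of 22 had a higher response in KLF2- cells (15.5% of all genes), with a median difference of 2.68, and 7 of 22 after background subtraction. That list summed to 1894 and 3376 CPM in unstimulated and 1242 and 1408 CPM in stimulated KLF2+ cells. Prss34 belongs to the basophil and mast cell list, of which 2 of 11 had a higher response. The part of other cell types in these values was not tested. After background subtraction 6 of these genes were no longer past the threshold, with an edgeR adjusted p of 0.0762 for Shisal1, 0.0693 for Slc7a14, 0.065 for Scn4b, 0.0771 for Il21, 0.161 for Top2a and 1 for Clec4n. Without unstimulated KLF2- replicate 3 or 4, Top2a, Klf2, Clec4n, Shisal1, Slc7a14 and Scn4b each missed the threshold, and so did Mcm10 without replicate 4 (edgeR adjusted p of 0.0649).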

How the results depend on the processing

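Counts of called genes stayed within 1.5 times in 12 of the recomputed values and moved beyond it in 15. The call changed in 9 of 14 alternatives for Nr4a1 and in 7 of 14 for Egr2, each time to past the threshold. The count of genes called in the KLF2- response moved from 0 to 2 without a filter (Egr2 and Nr4a1), 74 with DESeq2, 3 and 5 with limma on log2(TPM + 1) and log2(TPM + 0.1), and 0 to 409 when a library was left out, with or without background subtraction. With the replicate block it was 770 (311 higher, 459 lower), and 10857 for the difference from KLF2+ cells. The replicate numbers were not taken as pairs, since same-numbered KLF2- libraries had a correlation of 0.0865 in their deviations from the group means, although it was 0.537 for the KLF2+ libraries and Y-linked transcripts went with the number in both populations. The count for the difference was 1807 after background subtraction and 70 to 7085 when a library was left out. Combinations of background subtraction with a library left out, and the TGACG and CArG box searches, were added after the data were seen.

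Signs changed for genes that did not pass the test over both libraries. With factors from genes of at least 50 CPM and after background subtraction, Myc was at 0.0627 and 0.0433 and Cd44 at 0.12 and 0.16; Cd44 was at 0.0898 and 0.0911 with limma. The difference from KLF2+ cells was 0.49 and 0.87 for Nr4a1 and 0.0290 and 0.56 for Egr2 under those settings, 0.59 and 0.71 for Nr4a1 with limma and 0.12 for Egr2 with limma on log2(TPM + 0.1). When a library was left out, with or without background subtraction, values ran from -0.0912 to 4.13 for Kif4, -7.76 to 4.26 for Ajuba, -0.66 to 3.30 for Il2ra, -0.83 to 10.88 for Egr3, -0.76 to 3.32 for Rrm2, -8.31 to 3.93 for Pbk, -1.14 to 2.93 for Irf4, -0.25 to 2.60 for Top2a, -12.7 to 0.82 for Ccl17, -4.13 to 0.40 for Ccl22, -2.38 to 0.85 for Myc, -0.55 to 0.15 for Cd4, -0.20 to 1.16 for Klf2, -0.49 to 0.49 for Cd44, -0.0448 to 0.79 for Gzmb, -5.53 to 0.0853 for Il21 and -0.24 to 1.08 for Il4, and for the difference from -0.66 to 1.23 for Nr4a1 and -1.57 to 1.02 for Egr2. Values beyond 5 in size come from levels at or near 0 after subtraction and depend on the prior count; the cause of the other changes was not tested. Depth limits stimulated replicate 4 most, where 3 reads, the limit a count of 0 allows, come to 0.653 CPM.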
